A study of Mus musculus with 10 samples.

Results

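The genes described here are the lectin-like and taste receptor genes of mouse chromosome 6, and the measurement is where chromatin-bound SET, a histone-binding protein, gave peaks at them. Members were all protein-coding genes of chromosome 6 whose symbol starts with Klr, Clec or Tas2r in the RefSeq gene table of GRCm38.p6. There were 87 such genes, and 85 of them had a place on the chromosome among 19130 protein-coding genes analysed. The other 2, Klra16 and Klra23, are placed only on alternate sequence and were not analysed here. Of the 85, 72 lie between 118 and 136 Mb, here called the segment (26 Klr, 22 Clec and 24 Tas2r genes), and 13 lie elsewhere on the chromosome (1 Klr, 3 Clec and 9 Tas2r genes). The bounds of the segment were chosen by the peaks of the SETα overexpression libraries themselves, which crowd there. The contrast between the segment and the rest of chromosome 6, and between SETα overexpression and the other groups, is therefore given as a description, without a test.

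Peaks came from ChIP-seq of HA-tagged SETα or SETβ (SETa and SETb in the sample labels), the isoforms of SET, in KH2 mouse embryonic stem cells. The question of the study, as far as its design states it, is how the isoforms differ on chromatin when endogenous SET is present or absent. In the SETα addback and SETβ addback groups the endogenous gene was knocked out (SET KO) and the named isoform was the transgene. In the SETα overexpression and SETβ overexpression groups the same transgenes were expressed beside endogenous SET. All 4 groups received 1 µg/ml doxycycline for 24 hours, which induces the transgene, and were crosslinked with DSG and then formaldehyde before precipitation with an HA antibody. The cells grew on a layer of embryonic fibroblasts, which were depleted before harvest. Each group has 2 libraries and is a cell line of its own, so line and group cannot be told apart, and nothing in the labels says that its libraries came from separate cultures. SET KO cells that received no doxycycline, 2 samples, were not analysed here, and cells lacking the tagged protein therefore give no comparison level. Peak lists do not show expression, so the labelled cell type could not be checked against markers and a member's silence or activity was not measured.

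The lists held 22176 and 15701 peaks for SETα addback, 2518 and 9768 for SETβ addback, 4807 and 7675 for SETα overexpression and 1343 and 2869 for SETβ overexpression. Of these, 558, 590, 77, 194, 3337, 4777, 49 and 125 lay in the segment, in the same order. Only the SETα overexpression lists had most of their peaks there. Read depth was unknown, and a gene without a listed peak is a gene below the authors' threshold for listing, not a gene shown to be unbound.

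Killer cell lectin-like receptors, the Klr genes, sit in the natural killer gene complex and encode activating and inhibitory receptors of natural killer cells and some T cells; the Klra genes among them encode the Ly49 receptors for class I histocompatibility molecules. Most Clec genes of the same region encode C-type lectin receptors with which myeloid and dendritic cells sense microbes and dying cells. Tas2r genes encode bitter taste receptors, have a single coding exon, and lie in tandem arrays. The families are used in immune and taste cells and are generally regarded as silent in embryonic stem cells.

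The CG content of promoters did not enter the choice of members and was low at those of the segment that had a promoter to count, so 4 promoters are printed here, 5′ to 3′, with each CG dinucleotide in capitals. They run from 250 bases before to 50 after the listed transcription start and come from RefSeq, build GRCm38.p6. Whether transcription begins at the listed start was not checked, also not for the Tas2r genes of the segment, listed at 888 to 1044 bp. Clec12a, an inhibitory receptor of myeloid cells, is shown because its promoter was the only one of a member in the segment with a peak in both SETα overexpression libraries (chr6:129349994-129350293, plus strand). Klra4, a Ly49 receptor, had a promoter peak in replicate 1 alone (chr6:130067222-130067521, minus strand). Tas2r107, a bitter receptor, had one in replicate 2 alone (chr6:131660100-131660399, minus strand). Clec2l, a lectin-like gene elsewhere on the chromosome, is shown as the member with the most CG (chr6:38662819-38663118, plus strand), and it had no peak in any library. Tas2r107 was chosen after its values were seen.
Clec12a: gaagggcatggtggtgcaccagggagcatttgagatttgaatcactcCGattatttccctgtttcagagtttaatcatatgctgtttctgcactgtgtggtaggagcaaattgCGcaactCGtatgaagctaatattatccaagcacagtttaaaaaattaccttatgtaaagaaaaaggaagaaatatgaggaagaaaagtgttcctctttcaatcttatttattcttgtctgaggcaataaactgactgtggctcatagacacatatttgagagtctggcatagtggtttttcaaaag
Klra4: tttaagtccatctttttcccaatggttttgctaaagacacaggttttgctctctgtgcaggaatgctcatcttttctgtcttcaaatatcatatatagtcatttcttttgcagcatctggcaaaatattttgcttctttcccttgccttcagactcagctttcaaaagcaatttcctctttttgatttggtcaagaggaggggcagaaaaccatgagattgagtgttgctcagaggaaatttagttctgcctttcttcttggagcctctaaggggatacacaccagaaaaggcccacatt
Tas2r107: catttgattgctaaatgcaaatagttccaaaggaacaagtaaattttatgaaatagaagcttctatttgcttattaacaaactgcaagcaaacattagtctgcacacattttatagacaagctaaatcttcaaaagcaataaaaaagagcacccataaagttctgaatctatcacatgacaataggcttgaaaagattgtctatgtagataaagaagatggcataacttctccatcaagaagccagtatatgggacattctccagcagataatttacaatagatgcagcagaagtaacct
Clec2l: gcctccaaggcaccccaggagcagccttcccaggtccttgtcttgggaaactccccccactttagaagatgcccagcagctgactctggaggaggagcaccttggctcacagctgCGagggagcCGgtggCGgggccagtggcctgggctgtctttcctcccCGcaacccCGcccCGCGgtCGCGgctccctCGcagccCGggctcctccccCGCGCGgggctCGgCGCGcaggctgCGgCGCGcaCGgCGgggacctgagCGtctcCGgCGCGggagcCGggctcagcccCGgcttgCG

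The promoter of Clec12a holds 3 CG, those of Klra4 and Tas2r107 hold 0, and that of Clec2l holds 29. CG was counted as these 2 letters, which read the same on both strands. Promoters were found for 61 of the 72 members in the segment, 69 promoters in all. Their median was 2 CG (Klr 2, Clec 4, Tas2r 1) and their highest 7, and 15.9% held none. Among 18832 promoters of protein-coding genes the median was 12, and 4.89% held none. For 30 genes of the segment listed as broadly active, such as Gapdh and Chd4, 25 had an entry, and their 30 promoters had a median of 26, and 93.3% of them held at least 10 CG. Of all protein-coding promoters 55.8% held at least 10, and of those of members in the segment 0. Outside the segment, 2 members reached that number, Clec2l with 29 and Klrg2 with 12, as the plot of CG in promoters shows.

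**Figure D1:**
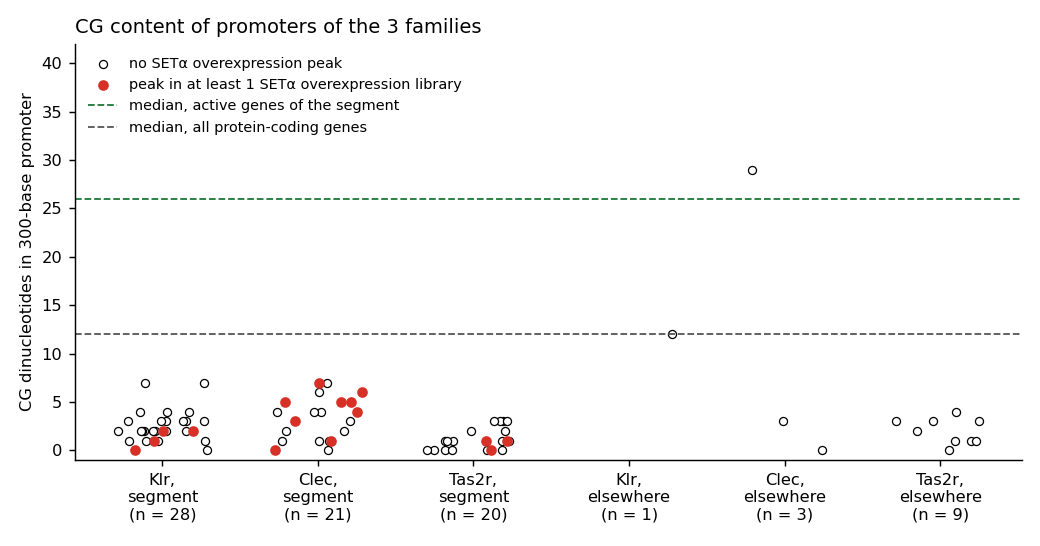
CG dinucleotides (y axis) in each 300-base promoter of the 3 families, split by place (x axis), with red points for promoters that overlap a peak of at least 1 SETα overexpression library and dashed lines at the medians of 2 comparison groups. Promoters in the segment hold at most 7 CG, below the median of 12 for all protein-coding genes, and red points occur in each family of the segment and in none elsewhere.

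Members in the segment had peaks almost wholly in the SETα overexpression libraries. A peak overlapping the gene body or 1 kb on either side was listed at 46 and 54 of the 72 genes in SETα overexpression replicates 1 and 2, which is 63.9% and 75.0% (mean 69.4%, SD 7.86, n = 2). Over all protein-coding genes the same libraries had a peak at 2.52% and 4.68%. The SETα addback libraries, with the longest lists, had a peak at 2 and 4 of the 72 genes (2.78% and 5.56%), where 46.7% and 41.2% of all protein-coding genes had one. The SETβ addback libraries had a peak at 0 and 3 of the 72 (background 10.7% and 28.4%), and SETβ overexpression at 0 and 1 (background 1.62% and 4.75%). Members thus stood far above the background in SETα overexpression, the contrast that set the bounds, and below it in the addback libraries. With SETβ overexpression the counts of 0 and 1 are near the background. The map of peaks by gene and library shows the block of filled cells in the SETα overexpression rows over the segment.

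**Figure D2:**
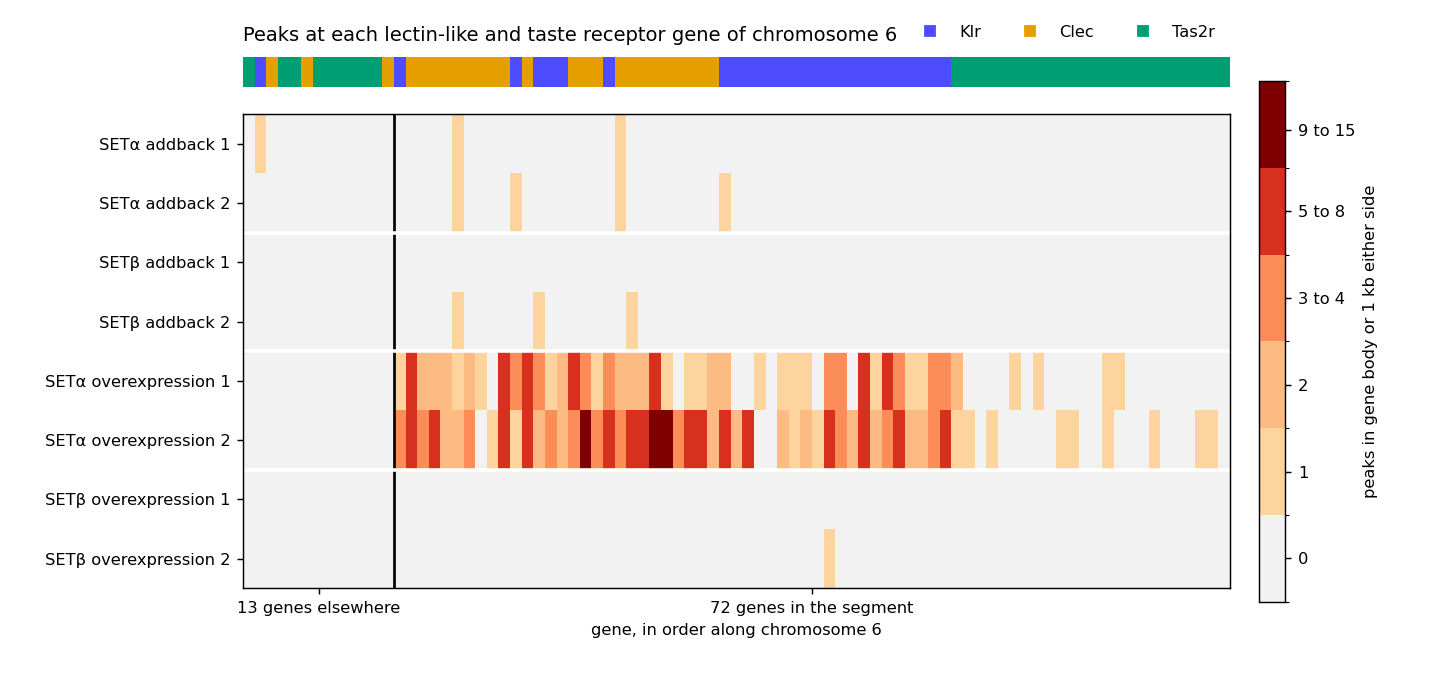
Number of peaks (colour) in the body or 1 kb either side of each of the 85 genes, in order along chromosome 6 (x axis), in each of 8 libraries (y axis), with the family above. Cells fill in both SETα overexpression rows right of the black line, where the segment begins, thin out over the Tas2r genes at the right, and are nearly empty in the other 6 rows.

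Elsewhere on chromosome 6 the 13 members had next to no peaks. These are Klrg2, Clec2l, Clec5a, which is a myeloid receptor that pairs with an activating adaptor, Clec4f, a receptor of liver macrophages, and the taste receptors Tas2r118, Tas2r137, Tas2r108, Tas2r138, Tas2r139, Tas2r144, Tas2r143, Tas2r135 and Tas2r126. Both SETα overexpression libraries listed 0 peaks at them, which for 13 genes is near the 2.52% and 4.68% over all protein-coding genes. The only peak at any of the 13 was inside Klrg2 in SETα addback replicate 1 (chr6:38636268-38636505, fold enrichment 2.99), and its summit lay 2389 bp from the nearer gene end. The addback counts of 1 and 0 of 13 with SETα and 0 and 0 with SETβ stand beside 46.7%, 41.2%, 10.7% and 28.4% of all protein-coding genes. Of the 6 genes of the same families on the other chromosomes analysed, Clec11a had a peak in SETα addback replicate 1 and Clec16a in SETβ addback replicate 2, and none had one in SETα overexpression. Cd302, a lectin-like gene on chromosome 2 kept for comparison, had 2 and 1 peaks with SETα addback and 0 in both SETα overexpression libraries. The rest of its comparison list, Cd69 and Olr1, lies in the segment. Cd69 had 0 and 9 peaks in SETα overexpression and Olr1 had 2 and 3. Both were named after their values were seen.

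The nearest members on either side of the lower bound show the change. Klrg1, an inhibitory receptor of natural killer and memory T cells at chr6:122270596-122282833, is the first member inside the segment and had 1 and 3 peaks in SETα overexpression and 0 in the other 6 libraries. Clec4f, at chr6:83644542-83656116, is the nearest member below the segment and had 0 in all 8. Tas2r140 is the last member inside, also with 0 in all 8, and no member lies above the upper bound. With so wide a gap between Clec4f and Klrg1, the members alone do not place the lower edge of the segment.

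Between families the share of genes with a peak was lower for the short taste receptor genes. Klr genes had a median length of 14396 bp, and 21 and 24 of 26 had a peak in SETα overexpression (80.8% and 92.3%). For Clec genes, with a median of 15255.5 bp, the numbers were 20 and 21 of 22 (90.9% and 95.5%). Tas2r genes, with a median of 934.5 bp, had a peak at 5 and 9 of 24 (20.8% and 37.5%). Counted per length of gene window, the families were closer, as the density plot shows. Klr windows held 104.8 and 157.2 peaks per Mb, Clec windows 129.7 and 236.3, and Tas2r windows 86.6 and 129.9. Within each replicate the order was Clec, Klr and Tas2r from highest to lowest, and the Tas2r values rest on 6 and 9 peaks.

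**Figure D3:**
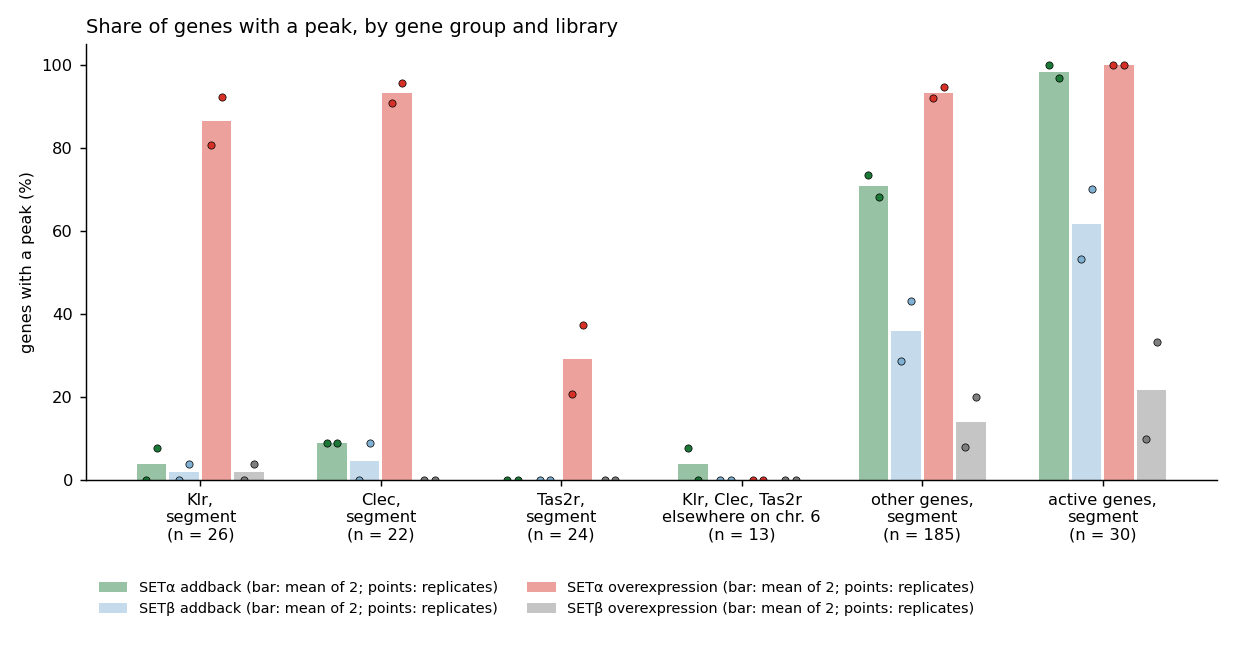
Percent of genes with a peak (y axis) in each gene group (x axis), with a bar at the mean of each study group and a point for each of its 2 libraries. The red points of Klr and Clec genes in the segment lie between 80.8% and 95.5%, close to those of the other genes of the segment, while the green and blue points of those families stay under 10%.

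**Figure D4:**
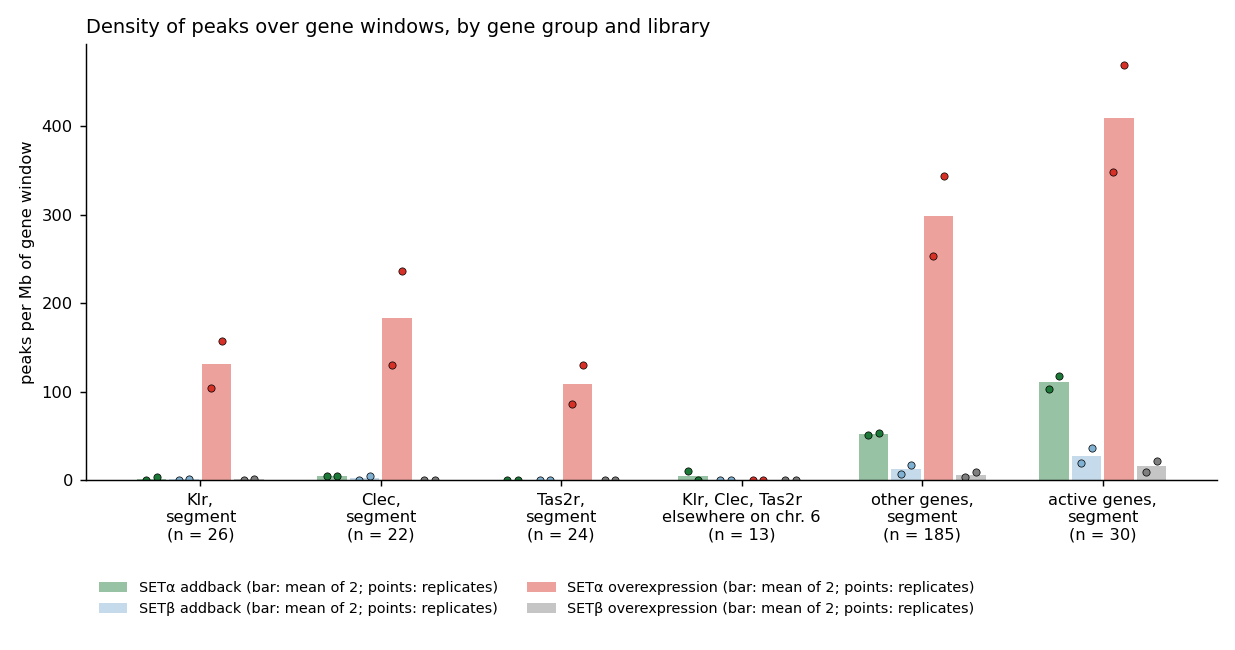
Peaks per Mb of gene window (y axis) in each gene group (x axis), with a bar at the mean of each study group and a point for each of its 2 libraries. With SETα overexpression the 3 families in the segment lie between 86.6 and 236.3 and the listed active genes at 348.1 and 469.2, while the members elsewhere are at 0.

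Density over the members was lower than over all other genes of the segment, but not lower in both replicates than over the genes listed as neighbours. All 72 members together held 116 and 192 distinct peaks, or 114.1 and 188.9 per Mb, and the 185 other protein-coding genes of the segment 253.4 and 343.6 per Mb. The members' windows take up 5.67% of the segment and held 3.48% and 4.02% of its peaks. The 30 listed active genes had 348.1 and 469.2 per Mb. In each replicate the members were the lowest of these 3 sets. For 13 genes listed as neighbours of the members, such as A2m and Mug1, the values were 105.8 and 219.9 per Mb, below the members in replicate 1 and above them in replicate 2. A2m and Mug1 were chosen after their values were seen. The 9 vomeronasal receptor genes of the segment, another sensory family generally regarded as silent in stem cells, had 133.2 and 214.3 per Mb, close to the members, and all 9 had a peak in both SETα overexpression libraries. Of 79 vomeronasal and olfactory receptor genes elsewhere on the chromosome, 0 and 1 had a peak there, near the 2.52% and 4.68% over all protein-coding genes.

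The order of members, other genes and active genes was the same in the addback libraries. The 30 active genes are among the 185 other genes and were listed with earlier results of these data known, so their place in this order is a description. Members had 1.97 and 3.94 peaks per Mb with SETα addback, against 51.6 and 53.4 for the other genes of the segment and 103.5 and 117.9 for the listed active genes. With SETβ addback the values were 0 and 2.95 for members, 7.69 and 17.5 for the other genes and 19.8 and 36.3 for the active genes. A peak in SETα addback was listed at 30 and 29 of the 30 active genes, among them Bms1, Adipor2, Rad52, Wnk1, Ninj2 and Emg1. In SETα overexpression all 30 had a peak in both libraries. All 7 listed stem cell genes of the segment had a peak in both SETα addback libraries, against 32.0% of all protein-coding genes, and 6 of them, named for having addback peaks, are Phc1, Apobec1, Gdf3, Dppa3, Nanog and Slc2a3. Of the 13 neighbours 4 and 2 had a peak with SETα addback (30.8% and 15.4%), fewer than the 46.7% and 41.2% over all genes, and the 2 with one in both libraries were Styk1 and Ybx3.

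In bins of 1 Mb along the segment, those rich in members had fewer peaks at the median, with wide ranges that overlapped. In 6 bins with at least 5 members starting in them, the median number of peaks was 74.5 and 171.0 in SETα overexpression. The other 12 bins of the segment had medians of 207.5 and 302.0. The bins rich in members ranged from 54 to 257 and from 147 to 329, and the others from 46 to 461 and from 56 to 551. With SETα addback the medians were 4.00 and 4.50 in the bins rich in members and 28.0 and 29.0 in the others, where the bins rich in members reached 61 in both replicates. Across the 18 bins the numbers of peaks in SETα overexpression and SETα addback rose and fell together (replicate 1, r = 0.779 and rho = 0.788; replicate 2, r = 0.783 and rho = 0.770), a description in which all bins share the same libraries and neighbouring bins are not independent. The plot of peaks along the segment shows both profiles.

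**Figure D5:**
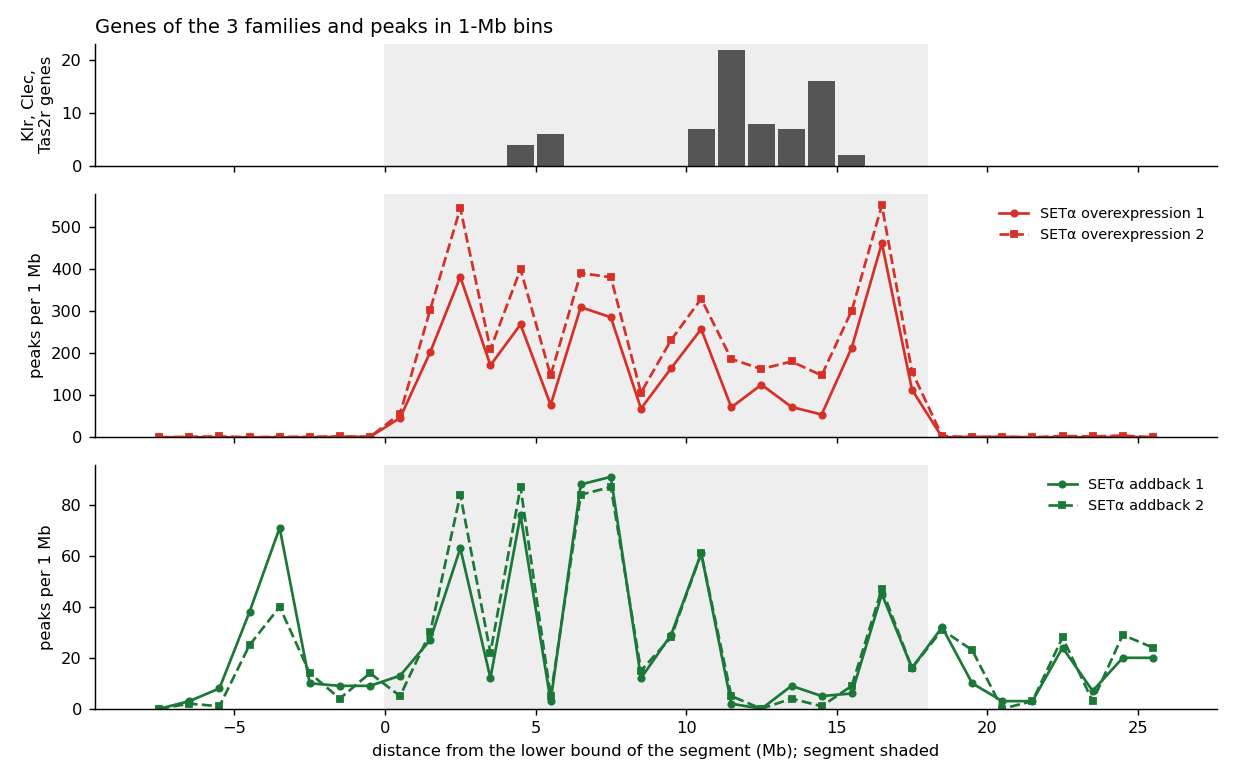
Members starting in each 1-Mb bin (top), and peaks in the bin for SETα overexpression (middle) and SETα addback (bottom), against distance from the lower bound of the segment in Mb, with the segment shaded. SETα overexpression counts are near 0 outside the shading and fill every bin within it, and both profiles are low over most, not all, of the bins rich in members.

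Members less than 0.5 Mb apart were taken as a cluster, and the whole span of every cluster, the stretches between genes included, held SETα overexpression peaks. The largest cluster runs from Klrb1a to Klra1, with 37 members in 1.78 Mb, and had 101.1 and 187.1 peaks per Mb in SETα overexpression. The cluster from Clec4a1 to Clec4e had 100.0 and 148.6, that from Klra2 to Tas2r114 had 99.4 and 233.2, and the taste receptor array from Tas2r120 to Tas2r140 had 69.9 and 202.1. Klrg1, which stands alone, had 70.2 and 210.7. Replicate 2, whose list is longer, was higher than replicate 1 in all 5.

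Most members with a peak had one in both SETα overexpression libraries. There were 41 such genes of 72 (56.9%), against 1.94% of all protein-coding genes. Of the other protein-coding genes of the segment, 167 of 185 had a peak in both (90.3%), so the trait is not particular to the members. A further 5 members had a peak in replicate 1 alone, 13 in replicate 2 alone and 13 in neither. By family 20 Klr, 19 Clec and 2 Tas2r genes had one in both. More peaks were listed in replicate 2 at 40 genes and in replicate 1 at 12, and 20 had equal numbers, 0 included. Among the strongest 1343 peaks of each list the order was the other way, with 16 peaks at 13 members in replicate 1 and 10 peaks at 10 members in replicate 2. The share of all protein-coding genes was not counted at that cut, so these counts have no background beside them. In SETα addback 2 members, Clec4a2 and Clec2e, had a peak in both libraries, where 32.0% of all protein-coding genes did.

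Among Klr genes the most peaks over both SETα overexpression libraries were at Klra4, Klra2 and, tied in sum with Klra9 (7 and 3) but shorter, Klrb1f. Klra4 had 8 and 6 peaks in SETα overexpression replicates 1 and 2, Klra2, another Ly49 gene, had 4 and 8, and Klrb1f, of the NKR-P1 receptors, had 3 and 7. All 3 had 0 in the other 6 libraries. The strongest peak at Klra4 lay inside the gene in both replicates, at chr6:130052287-130052507 (fold 2.96) and chr6:130052264-130052617 (fold 2.95), and the other peaks were spread over the gene and, in replicate 1, beyond the end that holds the printed promoter. Klrc2, an NKG2 receptor 11136 bp long, was the only Klr gene of the segment with no peak in either library.

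Among Clec genes Clec12a had 6 and 10 peaks, Clec2g, a lectin-like ligand gene, had 4 and 12, and Clec12b, an inhibitory receptor, had 1 and 15. All 3 were at 0 in the other 6 libraries. The strongest Clec12a peak lay just inside the gene in both replicates and overlapped the printed promoter, whose transcription start lies inside the gene as listed, at chr6:129350077-129350509 (fold 3.54) and chr6:129350012-129350776 (fold 3.80). Clec12b is listed over 52122 bp that also hold Clec1b and Clec9a, so peaks there count for more than 1 gene. In replicate 2, 11 peaks lay in the windows of 2 or more members, and in replicate 1 there was 1.

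Among Tas2r genes Tas2r130 had 2 and 1 peaks, and Tas2r117 had 1 and 1. Tas2r104, tied in sum with several other taste receptor genes of the segment but shorter, had 0 and 1. Only Tas2r130 and Tas2r117 of the 24 had a peak in both replicates. All 24 were at 0 in the other 6 libraries. The Tas2r117 peaks overlapped each other, at chr6:132803755-132804021 and chr6:132803863-132804410, with summits 34 and 494 bp outside the gene. Those of Tas2r130 lay at different places. Tas2r genes also made up 12 of the 13 members with no peak in either library, the longest of which are Tas2r102, Tas2r110, Tas2r136, Tas2r129 and Tas2r140, with 7 more.

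Few members had peaks in other groups. Clec4a2, an inhibitory receptor of myeloid and dendritic cells, had a peak at one place inside the gene in SETα addback replicate 1 (chr6:123137872-123138244, fold 3.31), SETα addback replicate 2 (chr6:123137824-123138529, fold 2.79) and SETβ addback replicate 2 (chr6:123137868-123138213, fold 2.89). Both SETα overexpression libraries had a peak there too, replicate 1 at chr6:123138237-123138596 (fold 2.55, q of 1), which overlaps both SETα addback peaks but not the SETβ one, and replicate 2 at chr6:123137881-123138422 (fold 3.62). Clec4a2 is the one member with a peak at the same place in 3 addback libraries. Clec2e, a lectin-like gene next to the Klrb1 genes, had a peak in both SETα addback libraries, at chr6:129090932-129091131 outside and chr6:129095300-129095536 inside the gene, which do not overlap. Klra17, a Ly49 gene, had the only SETβ overexpression peak of any member (replicate 2, chr6:129857945-129858160, fold 2.22), near the bottom of its list at rank 2720 of 2869.

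The remaining addback peaks at members in the segment, named after their values were seen, were 1 each at Klre1 and Klrb1a in SETα addback replicate 2 and at Klrb1 and Clec2d in SETβ addback replicate 2. Klre1, a receptor of natural killer cells, had its addback peak at chr6:129559190-129559389, across a gene end and with the summit 5 bp from it. Both SETα overexpression libraries had a peak over that place, at chr6:129559058-129559370 and chr6:129559057-129559409. In all, 2 of 116 and 4 of 192 member peaks of SETα overexpression (1.72% and 2.08%) overlapped a peak of any of the other 6 libraries. The same share over all SETα overexpression peaks was not counted, so whether these shares are low for the lists is not known.

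Over all 85 placed members, SETα addback and SETβ addback were compared by an exact permutation test, since neither group set the bounds. A peak was listed at 4.12% ± 0.832 of the members with SETα and 1.76% ± 2.50 with SETβ (SD, n = 2 each). Over all protein-coding genes the shares were 44.0% and 19.6%, so the members' order is that of the lists as a whole. The SETα libraries were higher by 2.35 percentage points, less than the SD of the SETβ libraries (exact two-sided permutation test, p = 0.667, where the smallest possible is 0.333). With SETβ, SET KO and SET wild type cells differed by 1.18 points, from 1.76% ± 2.50 to 0.588% ± 0.832 (SD, n = 2 each; exact two-sided permutation test, p = 1.00), where the shares over all protein-coding genes were 19.6% and 3.19%. Without SETβ addback replicate 2 the first difference was 4.12 points and the second −0.588, and without SETβ addback replicate 1 the first was 0.588 points and the second 2.94. The exact tests could not reach 0.05 in either design, and they measure only the spread between these libraries.

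Single peaks at members were weak, with a median fold close to that at the other genes of the segment. At a q of at most 0.05 a peak remained at 5 and 13 of the 72 members in SETα overexpression, where the background was 0.491% and 1.34%. In SETα addback it remained at 1 and 2 (background 30.8% and 31.4%) and in SETβ addback at 0 and 0 (background 5.85% and 10.3%). At a −log10 q of at least 5 no member had a peak in any of the 8 libraries. Over all protein-coding genes the shares at that threshold were 4.86% and 5.18% with SETα addback, 3.00% and 2.91% with SETβ addback, 0.0314% and 0.120% with SETα overexpression and 0.0157% and 0.0314% with SETβ overexpression. For both overexpression groups 0 of 72 is therefore near the background. A q of 1, the weakest possible, was listed for 76 of 116 and 66 of 192 member peaks of SETα overexpression (65.5% and 34.4%). At the other genes of the segment the shares with a q of 1 were 48.2% and 18.8%. Median fold enrichment at members was 2.66 and 2.77, close to the 2.74 and 2.87 at the other genes, and the highest was 3.92 and 4.31, against 4.97 and 6.03. Genes that reached q of at most 0.05 in both replicates were Clec12a, Klra4, Klra9 and Klre1, of which Klra9, another Ly49 gene, did so at different places in each. Klra9 and Klre1 were chosen after their values were seen. Of all peaks at members, 4.31% and 6.77% reached that q, against 6.45% and 24.9% at the other genes of the segment.

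Summits at members lay near gene ends about as often as the bases of their windows do. In SETα overexpression 31.0% of the summits at members in replicate 1 were within 1 kb of an end of a member in the segment (Wilson 95% interval 23.3% to 39.9%), and 24.0% in replicate 2 (18.5% to 30.5%). Ends of other genes were not counted here. These ends make up 25.6% of the bases of the same windows, which lies within both intervals. Over peaks with a q of at most 0.05 alone the mean share was 43.1%, from the 5 and 13 genes above. At the other genes of the segment, counting only their own ends, the shares were 14.6% and 15.1% in SETα overexpression against 9.54% of bases. In the addback libraries they were 38.2%, 38.5%, 72.7% and 41.6% at those genes. The intervals cover counting error only.

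At promoters the members had a peak in 3 and 14 of 69 in SETα overexpression (4.35% and 20.3%), where the background over all promoters was 0.340% and 0.600%. Of 192 promoters of the other protein-coding genes of the segment, 59 and 83 had one (30.7% and 43.2%), a larger share than at members in both replicates. Some genes have more than 1 overlapping promoter in the table, and the 3 and 14 belong to 3 and 11 genes. In the addback libraries the number was 0 of 69 in all 4, where the background was 19.8% and 19.4% with SETα and 5.61% and 10.2% with SETβ. Among 30 promoters of the listed active genes, 21 and 24 had a peak with SETα addback, 10 and 10 with SETβ addback and 10 and 15 with SETα overexpression. The promoters of Clec12a, Klra4 and Tas2r107 printed above, poor in CG, belong to the 3 and 14.

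Positions of member peaks were reproduced in part. Of 116 peaks at members in replicate 1, 43 overlapped a peak of replicate 2 (37.1%, Wilson 95% interval 28.8% to 46.1%), and of 192 in replicate 2, 43 overlapped one of replicate 1 (22.4%, 17.1% to 28.8%). In the rest of the segment the shares were 59.3% and 40.9%, and outside it 47.7% and 23.7%. The members' shares were below those of the rest of the segment in both directions. Peaks were also sparser at members, with 114.1 and 188.9 per Mb against 253.4 and 343.6 at the other protein-coding genes of the segment. Whether this lower density accounts for the lower shares was not tested.

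The authors' lists of peaks reproducible between replicates by irreproducible discovery rate (IDR) held no peak at any member in any of the 4 groups. Over all protein-coding genes the shares with such a peak were 3.05% with SETα addback, 2.88% with SETβ addback, 0.162% with SETα overexpression and 0.0732% with SETβ overexpression, so 0 of 72 lies near the background for both overexpression groups. Of 127 peaks in the SETα overexpression list 34 lay in the segment, and 2 of these lay inside clusters of members. One was in the pseudogene Klra11-ps (chr6:130082768-130083357), 15639 bp from Klra4, at rank 18 of 127. The other was in the noncoding RNA gene Gm34755 (chr6:128802583-128803038), 10803 bp from Klrb1b. The single SETα addback peak of this kind within a cluster lay at chr6:128759920-128761518, 17552 bp from Klrb1c. These genes were chosen after their values were seen.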

How the data were processed

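HA ChIP-seq was measured in 8 libraries with a peak list, 2 in each of 4 groups set by the genotype label, all with doxycycline. Per the submitters' processing notes, the tools included Bowtie2, MACS2 and deepTools and the builds GRCm38 and mm10; their roles, versions, the control library and the cut-off for listing are not given in the sources used here. The authors deposited 1 list per library and 1 list per group of peaks compared between replicates by IDR. Each deposited peak has a score, a linear fold enrichment (a ratio to local background), and a −log10 p and −log10 q, which are the authors' own values and were used only to describe, rank or filter peaks within a list.

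Genes and promoters came from RefSeq tables of GRCm38.p6, and chromosomes 8 and 11 were not analysed here. A gene had a peak where at least 1 base of a peak lay in its body or within 1 kb of it. Genes were counted per library with Python 3.11.15, pandas 2.3.3, numpy 2.4.6 and scipy 1.17.1; figures used matplotlib 3.10.9. Density is the number of distinct peaks per Mb of merged gene windows. Background is the same count over 19130 protein-coding genes. The overlap code was tested on simulated peaks and genes. Depth was unknown, so intervals (Wilson, 95%) cover counting error only.

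Named genes were all members elsewhere on chromosome 6; members of the segment with a peak in at least 2 addback libraries, in SETβ overexpression or in an IDR list; the 3 of each family with most SETα overexpression peaks; up to 6 of those with none, longest first; those nearest the bounds; and up to 6 of each comparison list with a peak in at least 2 addback libraries. Members and lists, that of active genes included, were chosen with earlier results of these data known. Replicate numbers were tested for pairing by correlating replicate differences over genes between groups. Alternatives were a q of at most 0.05, a −log10 q of at least 5, the strongest 1343 peaks of each list, other gene windows, leaving out each library and a replicate block.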

Additional observations from a re-analysis of the deposited data

How the results depend on the processing

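With a q of at most 0.05, peaks in SETα overexpression were listed at 12.5% of the members in the segment on average (69.4% as reported), with 8.86 peaks per Mb (151.5 as reported). The mean share of summits near a gene end was then 43.1% and that of peaks found in the other replicate 41.5%, and the difference between SET KO and wild type for SETβ was 0. Members of the segment with a peak in the other 6 libraries made up 0.694% at that q (2.31% as reported). At a −log10 q of at least 5 no peak was left at any member: the share with a peak was 0% in SETα overexpression and 0% in the other 6 libraries, the density 0 and both differences between groups 0, and the shares of summits and of shared peaks had no value. With the strongest 1343 peaks of each list the share of members with a peak was 16.0% in SETα overexpression and 0% in the other 6 libraries. The share over all protein-coding genes was not counted at that cut, so whether the 0% differs from the background is not known. The density was 12.8 per Mb, the share of summits near a gene end 38.8%, and both differences between groups 0. Windows of 5 kb on either side gave 84.0% of members in the segment with a peak in SETα overexpression and 3.70% in the other 6 libraries. A window of 250 bases around gene ends gave 7.79% of summits in SETα overexpression. Fewer peaks enter the stricter settings by construction. The other causes were not tested.

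Leaving out each library in turn gave 63.9% to 75.0% of members in the segment with a peak in SETα overexpression, 1.67% to 2.78% in the other 6 libraries, 0% to 1.10% of members elsewhere, 114.1 to 188.9 peaks per Mb, 24.0% to 31.0% of summits near a gene end and 22.4% to 37.1% of peaks shared. The difference between SETα and SETβ in SET KO ranged from 0.588 to 4.12 points, and that between SET KO and wild type for SETβ from −0.588 to 2.94, reversed without SETβ addback replicate 2 (−0.588, exact permutation test, p = 1.00). Where that left 1 library in a group, its value stood for the group without a spread. The exact test then assumes that the libraries of both groups vary alike.

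Replicate numbers did not pair the samples: replicate differences over genes correlated between groups by −0.0964 to 0.111. With the replicate number as a block in the exact test, labels moved only within a replicate number, which leaves the differences unchanged by construction. They were 2.35 points (exact permutation test, p = 0.500) and 1.18 points (p = 1.00), with 0.500 the smallest p possible.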
